A study of Caenorhabditis elegans with 2 samples.

Results

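Muscle of *C. elegans* contracts through sarcomeres, and the 38 genes described here encode the proteins of its thick and thin filaments, its titin-like proteins and the complexes that anchor filaments to the cell membrane. They were taken from the deposited table by gene symbol from a list set by protein function. The rule uses no measured value, but the list was drawn up with earlier results of these data known. All 38 were found among its 18510 genes. The table holds 1 library of untreated wild-type N2 nematodes (Control, 0 mM) and 1 library of N2 nematodes that received 2 mM of the abalone octapeptide AbaPep#07 from the L4 larval stage. In both, whole animals grown in liquid S medium on *E. coli* NA22 were collected at Day 10 of adulthood. The question addressed is which genes respond to the peptide in aged animals, asked here of the muscle apparatus and of its body wall and pharyngeal forms. With 1 library per condition no difference has a replicate check, and every interval below covers counting error only, so the error between cultures is unknown.

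Body wall muscle bends the animal and is obliquely striated, whereas the pharynx is a separate muscular pump that grinds and swallows bacteria. Thick filaments are built of myosin around a core of paramyosin, and thin filaments of actin carry tropomyosin and the troponin complex, which starts contraction when troponin C binds calcium. The nematode uses different genes for several of these proteins in its muscles. Among the members, 9 were assigned to body wall muscle (*unc-54*, *myo-3*, *mup-2*, *tnt-2*, *tnt-3*, *tni-1*, *tni-3*, *unc-27* and *pat-10*) and 5 to the pharynx (*myo-1*, *myo-2*, *tnt-4*, *tni-4* and *tnc-2*). A further 23 serve both muscles or have wider use, and *myo-5* was left unassigned. Dense bodies and M lines attach the filaments to integrin and through it to the basement membrane outside the cell, which makes sarcomere and attachment genes separate parts of the same apparatus.

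The estimated reads summed to 19409907 in Control and 19241145 with AbaPep#07. The members made up 1.09% of reads in Control and 1.02% with AbaPep#07. Each had between 935 and 59541 reads over both libraries, and the body wall and pharyngeal markers were all present. Among 5964 genes with at least 1000 reads, the log2 ratio of reads per library total (AbaPep#07 to Control) had a median of -0.04, a lower quartile of -0.14 and an upper quartile of 0.10. Read ratios below are scaled by the library totals, with a 95% exact binomial interval. FDR refers to the count test of the study's methods (PossionDis), which compares the 2 libraries sequenced and not the conditions.

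None of the 38 members passed the study's thresholds of an FDR of at most 0.05 and a change of at least 2-fold, which 3.53% of all genes did (2.1% higher and 1.43% lower) and 1.21% of genes with at least 1000 reads. By the FDR threshold alone 9 members were higher and 18 lower with AbaPep#07, and 11 did not pass. Over all genes 13.1% were higher and 12.4% lower by that rule, as were 21.8% and 26.5% of the genes of at least 1000 reads. The median log2 FPKM ratio (reads scaled by transcript length and library total) was -0.05 over the members. It was also -0.05 over the 5964 genes with at least 1000 reads, and -0.03 over the 14119 genes with at least 20 reads. When a coefficient of variation of 0.1 between cultures was put into edgeR's exact test, 0 members passed the FDR threshold, against 598 of all 18510 genes. An unadjusted p under 0.05 in that test was found for 4 members, namely *tnt-4*, *unc-45*, *unc-78* and *unc-112*. The share of all genes under that p was not counted, so these 4 cannot be said to stand out.

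**Figure D1:**
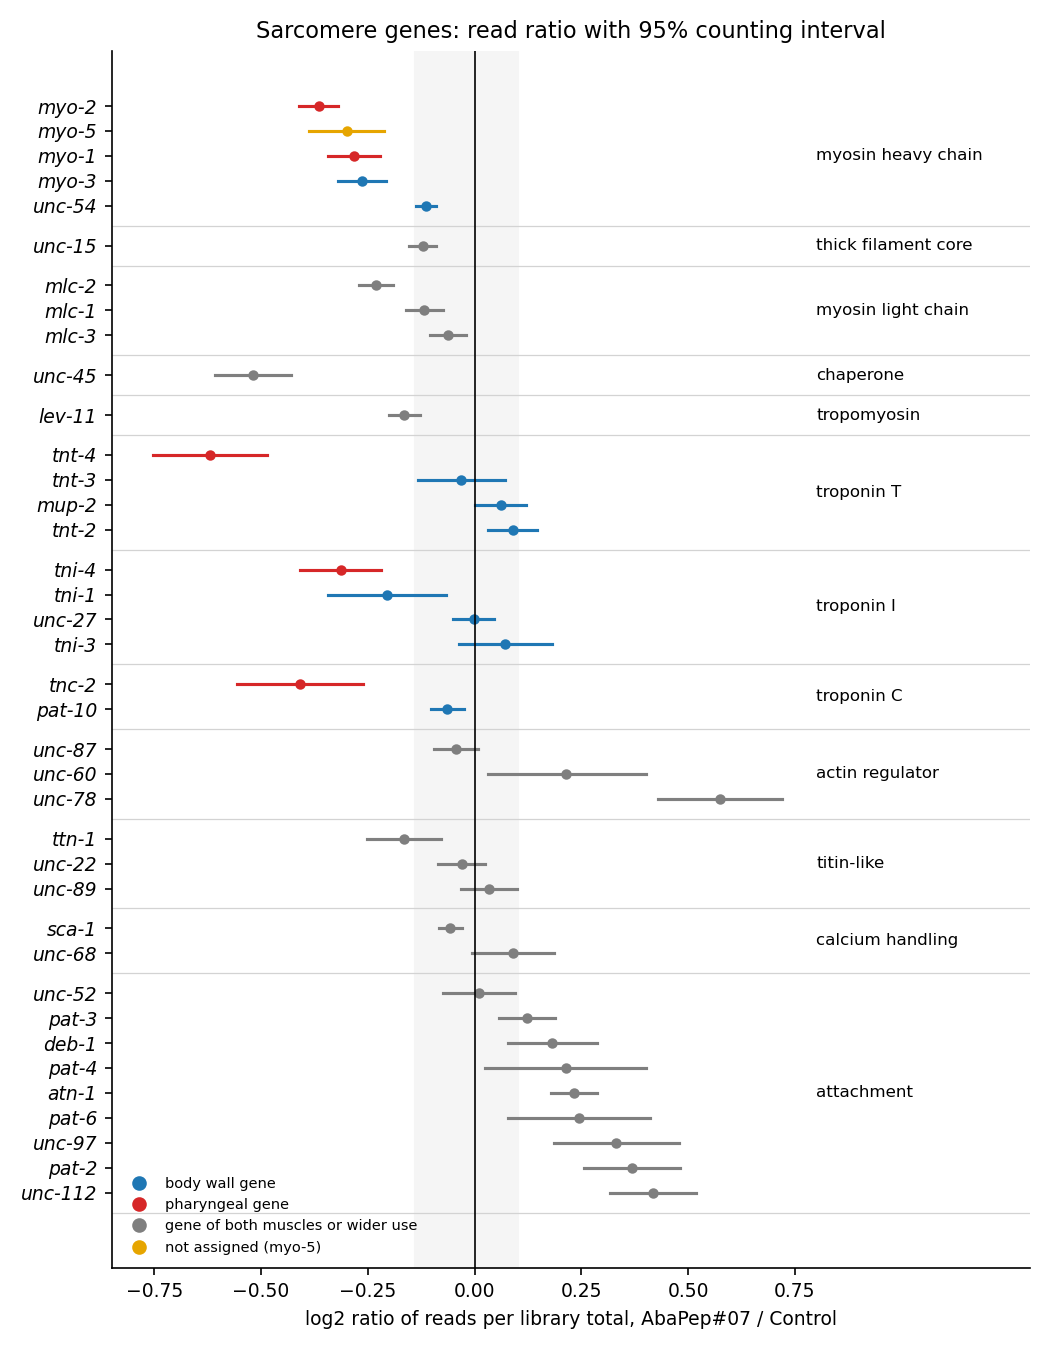
Log2 ratio of reads per library total, AbaPep#07 to Control, for the 38 members grouped by protein role, with bars for the 95% counting interval and colours for the muscle. The grey band spans the quartiles of genes with at least 1000 reads, and the 5 pharyngeal genes lie to its left while 8 of the 9 attachment genes lie to its right.

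All 5 pharyngeal genes were lower in the AbaPep#07 library and passed the FDR threshold, and all 5 lay below the lower quartile of genes with at least 1000 reads. They encode the pharyngeal forms of 4 proteins, namely myosin heavy chain and troponins T, I and C. Their log2 FPKM ratios had a median of -0.37, against -0.03 over the 9 body wall genes. Of the body wall genes 4 were lower, 1 was higher and 4 did not pass the FDR threshold. Because RNA came from whole animals, fewer cells of a type and less RNA per cell cannot be told apart.

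By reads and FPKM the largest difference among the members was that of *tnt-4*, the pharyngeal troponin T gene, whereas by TPM it was that of *unc-78* (log2 TPM ratios of -0.57 for *tnt-4* and 0.62 for *unc-78*). The gene *tnt-4* (chromosome V, 1989471 to 1992918, WBcel235) had 1164 reads in Control and 751 with AbaPep#07, a read ratio of 0.651 (0.593 to 0.714), and only 0.486% of genes with at least 1000 reads had a lower ratio. The body wall troponin T genes did not share it. For *mup-2* (chromosome X, 6408471 to 6410227), mutants of which have misplaced embryonic muscle, the reads were 4518 and 4672. The reads of *tnt-2* (chromosome X, 8721546 to 8723550) went from 4765 to 5024, a ratio of 1.06 (1.02 to 1.11) that passed the FDR threshold. The third body wall gene, *tnt-3*, had 1625 and 1577 reads, a ratio of 0.979 whose interval (0.913 to 1.05) includes 1.

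Troponin C, the calcium sensor, is encoded by *pat-10* in the body wall (chromosome I, 5018783 to 5020086) and by *tnc-2* in the pharynx (chromosome II, 10466852 to 10468358). For *tnc-2* the reads were 877 and 655, a ratio of 0.753 (0.680 to 0.835). For *pat-10* they were 11519 and 10928, a ratio of 0.957 (0.932 to 0.982). Both were lower, and the intervals of their ratios do not overlap.

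Troponin I holds the thin filament off until calcium arrives. Its pharyngeal gene *tni-4* (chromosome IV, 5204591 to 5207124) had 2015 and 1607 reads, a ratio of 0.805 (0.753 to 0.859). The main body wall gene *unc-27* (chromosome X, 8789456 to 8790621), mutants of which move poorly, had 7041 and 6973 reads (ratio 0.999, 0.966 to 1.03). The reads of *tni-3* were 1348 and 1404 and its ratio of 1.05 had an interval from 0.974 to 1.13. In contrast, *tni-1* was lower at 928 and 798 reads, a ratio of 0.867 (0.788 to 0.955). This was 0.868 times (0.785 to 0.960) the ratio of *unc-27*, an interval that excludes 1 but is not adjusted for the 12 pairs compared. The 7 body wall troponin genes had a summed read ratio of 0.997 (0.982 to 1.01).

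**Figure D2:**
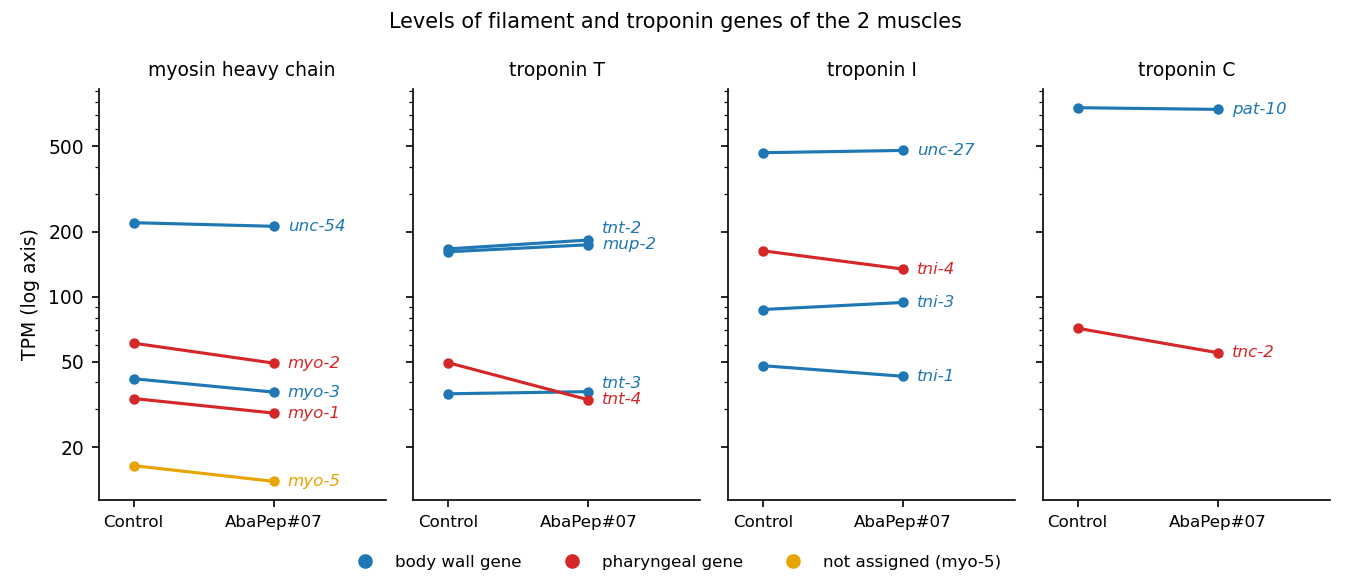
TPM (log axis) in the Control and AbaPep#07 libraries of the genes for myosin heavy chain and troponins T, I and C, 1 line per gene, coloured by muscle. Each red pharyngeal line falls, whereas among the blue body wall troponin lines *tni-1* falls, *tnt-2*, *mup-2* and *tni-3* slope upward (log2 TPM ratios of 0.14, 0.11 and 0.11) and *pat-10*, *unc-27* and *tnt-3* stay within 0.04 of level.

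All 5 myosin heavy chain genes were lower with AbaPep#07, in both muscles, and all passed the FDR threshold. In the pharynx, the reads of *myo-2* (chromosome X, 12468061 to 12475348) were 8625 and 6638, a ratio of 0.776 (0.752 to 0.802). Those of its partner *myo-1* (chromosome I, 7258946 to 7267057) were 4943 and 4029, a ratio of 0.822 (0.788 to 0.857). In the body wall the 2 heavy chains differed. The gene *myo-3* (chromosome V, 12226816 to 12234343), whose product occupies the centre of the thick filament and is needed to start its assembly, had 5673 and 4686 reads (ratio 0.833, 0.801 to 0.866). For *unc-54* (chromosome I, 14855901 to 14863482), which forms the outer arms and most of the myosin, the reads were 31064 and 28477 and the ratio was 0.925 (0.910 to 0.940). The ratio of *myo-3* was 0.901 times that of *unc-54*, with a counting interval of 0.864 to 0.940. The unassigned gene *myo-5* (chromosome V, 8108970 to 8118131) had 2313 and 1863 reads, a ratio of 0.813 (0.764 to 0.864) that lies among those of *myo-1*, *myo-2* and *myo-3*.

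Levels per transcript, as TPM, ranked the genes of each of these proteins in the same order in both libraries, except those of troponin T. Over the 38 members TPM in Control ran from 4.75 for *unc-68* to 1380 for *mlc-2*, and their sum was 6564 in Control and 6282 with AbaPep#07. Among heavy chains *unc-54* was the most abundant at 221 and 212 TPM, which was 5.30 times the level of *myo-3* in Control and 5.88 times with AbaPep#07. In the pharynx *myo-2* stood at 60.9 and 49.2 TPM and *myo-1* at 33.7 and 28.8. The read ratio of *myo-1* was 1.06 times (1.005 to 1.12) that of *myo-2*. This small gap has an interval that nearly reaches 1 and is not adjusted for the 12 pairs compared. Troponin C of the body wall exceeded that of the pharynx, with *pat-10* at 10.6 times the TPM of *tnc-2* in Control and 13.5 times with AbaPep#07. Pharyngeal *tnt-4* was above body wall *tnt-3* in Control, at 49.4 against 35.4 TPM, and below it with AbaPep#07, at 33.2 against 36.3 TPM.

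Setting the pharyngeal against the summed body wall genes of the same protein gave a ratio below 1 for each of the 4 proteins. Single genes did not all separate. The interval of body wall *myo-3* (0.801 to 0.866) overlapped that of pharyngeal *myo-1* (0.788 to 0.857), and *unc-54* held 31064 of the 36737 body wall heavy chain reads in Control. The interval of body wall *tni-1* (0.788 to 0.955) overlapped that of pharyngeal *tni-4* (0.753 to 0.859). The pharyngeal to body wall ratio of summed reads with AbaPep#07, divided by that in Control, was 0.871 (0.846 to 0.897) for myosin heavy chain. It was 0.624 (0.567 to 0.687) for troponin T, 0.810 (0.754 to 0.870) for troponin I and 0.787 (0.709 to 0.874) for troponin C. The gap was thus smallest for myosin, where the body wall genes were lower too. Its interval did not overlap that of troponin T but overlapped those of troponins I and C. On the TPM scale, which corrects for transcript length, the pharyngeal genes supplied 26.5% of the heavy chain transcripts of both muscles in Control and 23.9% with AbaPep#07. For troponin T the share went from 11.9% to 7.78%, for troponin I from 21.4% to 17.9%, and for troponin C from 8.64% to 6.91%. Over all 4 proteins the ratio of ratios was 0.824 (0.803 to 0.844) by reads and 0.787 by summed TPM.

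The other thick filament genes were lower as well, by less than the pharyngeal genes. Paramyosin, the filament core, is encoded by *unc-15* (chromosome I, 7376604 to 7383197), which had 16845 and 15355 reads (ratio 0.920, 0.900 to 0.940). The regulatory light chains of myosin come from *mlc-1* and *mlc-2*, neighbours on chromosome X between 17455792 and 17460778. The reads of *mlc-2* went from 11549 to 9758, a ratio of 0.852 (0.830 to 0.876), and those of *mlc-1* from 8719 to 7969, a ratio of 0.922 (0.894 to 0.950). These genes are close copies and their AbaPep#07 reads are not whole numbers, so RSEM may have divided reads between them, which makes their summed ratio of 0.882 more certain than either value. The essential light chain gene *mlc-3* had 9693 and 9204 reads (ratio 0.958, 0.931 to 0.986). On the TPM scale *mlc-2* was the most abundant member in Control at 1380, followed by *pat-10* at 755 and *lev-11* at 633.

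The lowest ratio of the set after *tnt-4* belonged to *unc-45* (chromosome III, 491547 to 502625), the chaperone that folds myosin heads and is needed to assemble thick filaments. It had 2543 reads in Control and 1759 with AbaPep#07, a ratio of 0.698 (0.656 to 0.742). Only 1.06% of genes with at least 1000 reads had a lower ratio. The ratio of *unc-45* was lower than that of the heavy chains it serves in the body wall, as that of *myo-3* was 1.19 times (1.11 to 1.28) and that of *unc-54* 1.33 times (1.24 to 1.41) as large.

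Thin filament genes outside the troponin complex went different ways. Tropomyosin, encoded by *lev-11* (chromosome I, 14621169 to 14631094), had 13318 and 11779 reads, a ratio of 0.892 (0.870 to 0.915). Higher with AbaPep#07 was *unc-78* (chromosome X, 3408674 to 3411615), which encodes actin-interacting protein 1 and helps cofilin take filaments apart. Its reads went from 654 to 965, a ratio of 1.49 (1.35 to 1.65), the highest of all members. The cofilin gene *unc-60* had 455 and 523 estimated reads, not whole numbers in either library, and its ratio of 1.16 (1.02 to 1.32) did not pass the FDR threshold. The calponin-like gene *unc-87*, whose product steadies thin filaments, had 6167 and 5935 reads (ratio 0.971, 0.937 to 1.01).

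The actin genes themselves, which are not members, were given by a list set aside with the members. The reads of *act-3* were 12208 and 14484, a ratio of 1.20 (1.17 to 1.23), and those of *act-4* were 18449 and 21513, a ratio of 1.18 (1.15 to 1.20). For *act-2* the ratio was 0.909 (0.883 to 0.935), and for *act-1* it was 0.988 (0.961 to 1.02). These genes are near-identical and the reads of *act-1*, *act-2* and *act-3* are not whole numbers, so their sum is firmer than each value, at a ratio of 1.04 (1.03 to 1.06). Some of these actins are also made outside muscle.

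The attachment genes stood at the other end from the pharyngeal genes. By reads all 9 had ratios above 1, of which 7 passed the FDR threshold, and 8 lay above the upper quartile of genes with at least 1000 reads. Their summed read ratio was 1.15 (1.13 to 1.18) and their median log2 FPKM ratio was 0.22. None passed the FDR threshold as lower.

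Integrin is the receptor at the base of dense bodies and M lines. Its α subunit gene *pat-2* (chromosome III, 8818899 to 8825274) had 1156 and 1479 reads, a ratio of 1.29 (1.19 to 1.40). The β subunit gene *pat-3* (chromosome III, 3908931 to 3914149), which also pairs with another α subunit and acts in many tissues, had 3618 and 3908 reads (ratio 1.09, 1.04 to 1.14). The subunits thus differed, with intervals that do not overlap.

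Of 4 genes for proteins that gather on the inner side of integrin, 3 passed the FDR threshold as higher and *pat-4* did not. For the kindlin gene *unc-112* (chromosome V, 14691855 to 14696654) the reads were 1398 and 1851, a ratio of 1.34 (1.25 to 1.43). The gene *unc-97* (chromosome X, 5593133 to 5594965), which encodes the adaptor PINCH, had 698 and 871 reads (ratio 1.26, 1.14 to 1.39). Parvin, encoded by *pat-6*, had 549 and 645 reads (ratio 1.19, 1.06 to 1.33), and passed the FDR threshold. For *pat-4*, the integrin-linked kinase, the reads were 435 and 500, with a ratio of 1.16 (1.02 to 1.32).

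The dense body genes *atn-1* and *deb-1* also passed the FDR threshold as higher. The reads of *atn-1*, encoding α-actinin, were 5090 and 5927, a ratio of 1.17 (1.13 to 1.22). For *deb-1*, the vinculin gene, they were 1424 and 1601, a ratio of 1.13 (1.06 to 1.22). On the log2 scale this was 0.18, but the FPKM ratio was 0.03, since RSEM assigned its reads an effective transcript length of 2011 bases in Control and 2231 bases with AbaPep#07. The gene has 8 annotated transcripts of 666 to 3630 bases. Perlecan, the matrix ligand encoded by *unc-52*, had 2262 and 2258 reads (ratio 1.01, 0.950 to 1.07), and was at -0.04 on the log2 FPKM scale, where 8 of the 9 attachment genes were above 0.

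**Figure D3:**
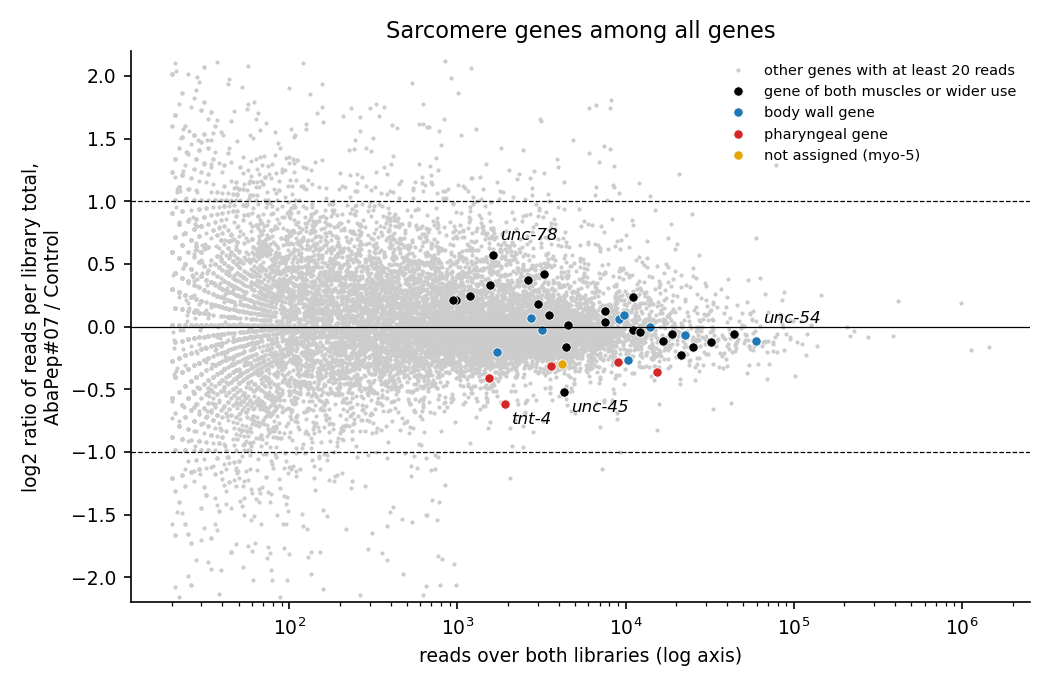
Log2 ratio of reads per library total, AbaPep#07 to Control, against the reads over both libraries (log axis) for genes with at least 20 reads (grey), with the 38 members coloured by muscle and dashed lines at 2-fold. All members lie within 2-fold and toward the deeper side of the table, and genes beyond the vertical range are not drawn.

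Of the giant titin-like genes and the calcium genes, *ttn-1* and *sca-1* passed the FDR threshold, both as lower. Twitchin, encoded by *unc-22* (chromosome IV, 11972697 to 12011007), had 5581 and 5417 reads (ratio 0.979, 0.943 to 1.02). The obscurin-like gene *unc-89* (chromosome I, 4035702 to 4090885) had 3730 and 3786 reads (ratio 1.02, 0.978 to 1.07). On the log2 scale this was 0.03, but the FPKM ratio was 0.14, as the effective length went from 9589 to 8932 bases, with 16 annotated transcripts of 4734 to 24703 bases. Of the 3, only *ttn-1* passed the FDR threshold, with 2352 and 2079 reads and a ratio of 0.892 (0.840 to 0.946). The calcium pump gene *sca-1* had 22653 and 21583 reads, and its ratio of 0.961 (0.943 to 0.979) passed the FDR threshold as lower, although its log2 ratio was 0.01 by TPM. The ryanodine receptor gene *unc-68*, the calcium release channel, had 1705 and 1799 reads (ratio 1.06, 0.996 to 1.14).

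Lists of other genes tied to muscle, attachment or the pharynx were set beside the members. By the FDR threshold 13.1% of all genes were higher and 12.4% lower, and 21.8% and 26.5% of genes with at least 1000 reads. Of 34 genes listed as other sarcomere and attachment genes, 16 were higher and 3 lower by the FDR threshold, with a median log2 FPKM ratio of 0.16. That list is not limited to muscle and holds 6 basement membrane genes, all higher. Without them, a choice made after seeing the values, 10 of 28 were higher and 3 lower, with a median of 0.10. Genes for excitation of body wall muscle, such as acetylcholine receptor subunits and calcium channels, were 0 higher and 1 lower of 20, and their median was -0.02. These 20 genes together had only 5644 and 5534 reads, so small differences in them would not pass. In the pharynx list outside the sarcomere, 2 of 22 genes were higher and 8 lower, with a median of -0.28 over the 18 genes with at least 20 reads. Past the study's thresholds and at least 20 reads were 5 of them, all lower. Among them the gland genes were *phat-2* (78 and 22 reads), *phat-4* (51 and 17) and *phat-5* (129 and 30), and *abu-8* and *abu-14*, expressed with the pharyngeal cuticle, had 165 and 67 and 593 and 245 reads. Not all pharyngeal genes were lower. The 2 higher genes were *phat-3*, of the same family as the gland genes named, with 834 and 1013 estimated reads (ratio 1.23, 1.12 to 1.34), and *inx-3*, a gap junction gene, with 1028 and 1399 reads.

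Markers of other cell types also differed between the libraries, and their part in the differences above was not tested. Counts are by the FDR threshold, which 13.1% of all genes passed as higher and 12.4% as lower. For genes with at least 1000 reads the shares were 21.8% and 26.5%. Of 14 neuron markers 8 were lower and 0 higher, with a median log2 FPKM ratio of -0.24. Their summed TPM was 814 in Control and 776 with AbaPep#07. Of 16 germline and embryo markers 13 were lower and 2 higher, with a median log2 FPKM ratio of -0.23 and summed TPM of 6071 and 6090. The 2 higher genes, *perm-2* and *perm-4*, held most of that sum, and without them, a choice made after seeing the values, it was 2123 and 1851. Intestine markers were 8 higher and 3 lower of 16, with summed TPM of 4923 and 5488. Past 2-fold by FPKM among them were *act-5*, the actin of intestinal microvilli, with 2653 and 5757 reads, and the metallothionein gene *mtl-2* with 364 and 167. The lysozyme gene *lys-1*, with 2578 and 5158 reads, was past 2-fold by reads (ratio 2.02, 1.92 to 2.12) and at 0.99 on the log2 FPKM scale. Epidermis markers were 5 higher and 1 lower of 12, and larval and moulting markers 6 higher and 1 lower of 10. No listed marker was at 0 reads in both libraries.

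**Figure D4:**
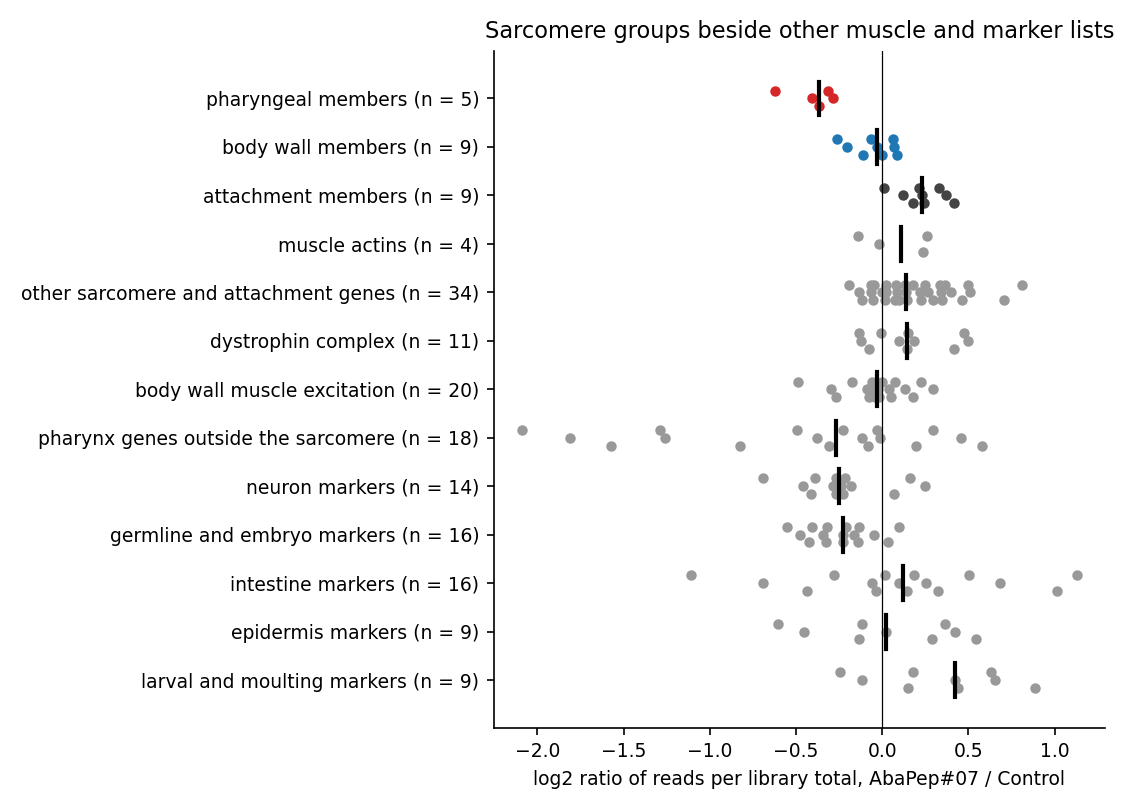
Log2 ratio of reads per library total, AbaPep#07 to Control, 1 point per gene with at least 20 reads, with the median as a black bar. Rows are the pharyngeal, body wall and attachment members, lists of other genes tied to muscle, attachment or the pharynx, and cell type markers. The pharyngeal members all lie left of 0, and the attachment members lie right of 0. Also left of 0 are the medians of the body wall members and of the excitation, outer pharynx, neuron and germline lists.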

How the data were processed

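Whole-nematode polyadenylated RNA was sequenced in 1 Control and 1 AbaPep#07 library. After read cleaning by SOAPnuke, the authors mapped to coding genes with Bowtie2 (2.2.5) and quantified genes with RSEM (1.2.12). The submitters' processing notes name WBcel235 as the build. The deposited table holds estimated counts, FPKM and TPM, all from RSEM as run by the authors. RSEM divides reads between similar genes, and 3 of the 38 members had counts that are not whole. FPKM also depends on the effective transcript length, which was 10.3 bases longer with AbaPep#07 at the median of 5725 genes with at least 500 reads in each library. The authors' deposited log2 ratio, p-value and FDR score of their own comparison were not used, and 0 columns of sample values were left out.

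The PossionDis test (Audic and Claverie) was recomputed on counts rounded down, with the lower tail including and the upper excluding the observed count, and Benjamini-Hochberg adjustment over 18510 genes. An FPKM of 0 was set to 0.01. edgeR's quasi-likelihood test could not be fitted without replicates. Scaling factors and exact tests with an assumed coefficient of variation of 0.1 or 0.2 came from edgeR 4.0.16 and DESeq2 1.42.0 (R 4.3.3), and the rest from Python 3.11.15 with scipy 1.17.1. The tests were run on simulated counts, without variation between cultures for the count test and with the assumed coefficient for edgeR's test. These simulations therefore did not check the tests against the unknown variation between cultures. Intervals of a ratio of ratios used Poisson variances, for 5 comparisons between muscles and 12 pairs of genes. Positions are from RefSeq and transcript lengths from Ensembl, both on WBcel235, and all 38 members matched.

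The members and lists were chosen with earlier results of these data known. Members were assigned to body wall or pharynx from textbook knowledge. All members are accounted for, and genes of other lists are named where past 2-fold by FPKM with at least 20 reads, besides the actins *act-1* to *act-4*. The genes *inx-3*, *phat-3*, *lys-1*, *perm-2*, *perm-4* and those of the basement membrane were picked with their values in view. The alternatives tried were scaling, TPM, 1 FPKM added, a minimum of 20 reads, the tails, Bonferroni adjustment and the assignment of *unc-22* and *myo-5*.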

Additional observations from a re-analysis of the deposited data

How the results depend on the processing

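No paired analysis was possible because each condition has 1 library, and no replicate could be left out. None of the members was called at the study's thresholds under any of the 10 alternatives. With Bonferroni adjustment 4 members were higher and 13 lower past 0.05, where 1848 of all 18510 genes passed. By edgeR's exact test 0 were higher and 0 lower past the FDR threshold at an assumed coefficient of 0.1 and at 0.2. Over all genes 598 and 90 passed. At those coefficients 4 and 0 members had an unadjusted p under 0.05, a count not made over all genes. The variation between cultures is unknown. TPM moved the median log2 ratio of all genes from -0.03 to 0.03, and put that over the members at 0.013 and over the pharyngeal genes at -0.31. It turned the sign of 6 members, *sca-1* to 0.011 and, none of them past the FDR threshold, *tnt-3*, *unc-22*, *unc-27*, *unc-52* and *unc-87*, and that of the body wall median, from -0.03 to 0.03. By summed TPM and by summed FPKM the ratio of ratios over all 4 proteins was 0.787, the same by construction, as TPM rescales FPKM within each library. The difference between the pharyngeal and body wall medians was -0.34, and between -0.34 and -0.33 under the alternatives. A factor common to a whole library cancels in this difference, so rescaling the libraries or using TPM could not move it. Only the change from FPKM to reads, the added 1 FPKM and the assignment of genes could.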

Other observations

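In the list of other sarcomere and attachment genes, 6 genes for collagen IV, laminin and nidogen of the basement membrane passed the FDR threshold as higher with AbaPep#07, with a summed read ratio of 1.40 (1.37 to 1.42). The laminin β gene *lam-1* had 2288 and 3979 reads, the largest of these ratios at 1.75 (1.67 to 1.85), and the collagen IV gene *let-2* had 10635 and 14537 reads, a ratio of 1.38 (1.34 to 1.41). Perlecan, a member of the same matrix, had a ratio of 1.01. Without these 6 genes, 10 of the 28 other genes of that list were higher and 3 lower, with a median log2 FPKM ratio of 0.10. These genes were singled out after their values were seen.

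In a list of genes for the dystrophin complex and related proteins, not all of them particular to muscle, 4 were higher and 0 lower of 11. By the same FDR threshold 13.1% of all genes were higher and 12.4% lower, and 21.8% and 26.5% of genes with at least 1000 reads. The dystrophin gene *dys-1* had 2161 and 2430 reads, a ratio of 1.13 (1.07 to 1.20), and the dystroglycan-like gene *dgn-1* had 639 and 881, a ratio of 1.39 (1.25 to 1.54). Of 7 muscle transcription factor genes all had read ratios above 1, with a median log2 FPKM ratio of 0.32. The 1 past the FDR threshold was *pha-4*, the organ identity factor of the pharynx, with 699 and 872 reads (ratio 1.26, 1.14 to 1.39). Together the 7 had only 1284 and 1549 reads, so small differences in the others would not pass. The factor *ceh-22*, which activates *myo-2*, had 46 and 68 reads and did not pass.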
